A study of Populus ussuriensis with 12 samples.

Results

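Cellulose of secondary cell walls is made by 3 classes of cellulose synthase catalytic subunit, CesA4, CesA7 and CesA8. The poplar genes followed here are CesA4 (Potri.002G257900), CesA7-A (Potri.006G181900), CesA7-B (Potri.018G103900), CesA8-A (Potri.011G069600) and CesA8-B (Potri.004G059600). They were chosen by identifier, as the poplar members of these classes, by a rule that uses no measured value, and all 5 are among the 34699 genes of the deposited table. The set was nonetheless picked for study with earlier results of these data known. Read as chromosome numbers, the digits in the identifiers place CesA4 on chromosome 2, the CesA7 pair on 6 and 18, and the CesA8 pair on 11 and 4.

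Cellulose synthases work at the plasma membrane in rosette-shaped complexes that spin glucan chains into microfibrils. The secondary wall complex needs a subunit of each of the 3 classes, whereas a different set of CesA proteins builds the primary wall of growing cells. In Arabidopsis, loss of any one of the 3 secondary wall classes leaves xylem vessels with thin walls that collapse under the tension of water transport. In poplar, CesA7 and CesA8 are each present as a pair of copies kept from a genome duplication in the ancestry of poplars and willows. In a root these genes are known for their activity in the maturing water-conducting xylem, behind the dividing and elongating zones of the tip.

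RNA came from the outermost 0.5 cm of roots of Populus ussuriensis grown in vitro. Plants 1 week old spent 7 days on half-strength Murashige and Skoog agar that held 6% PEG6000, a polyethylene glycol that lowers the water available to the root, or none. The genotypes were wild type (WT) and an overexpression line of PuC3H35 (OE), a CCCH zinc finger protein, which gives 4 groups (WT, WT with PEG, OE, OE with PEG) with 3 libraries each. The sources used here name neither the promoter of the transgene nor the number of independent lines, and the genotype labels of the 6 OE libraries run from PuC3H35 to PuC3H40 although the series title names 1 line. Whether replicates were different plants is not labelled, so the p-values reflect the spread among these libraries alone, which may be technical.

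Values are FPKM, read numbers divided by gene length and by library depth, so levels of different genes can be compared per length. The steps between FPKM values gave back the reads behind them, with 27124958 to 37106342 reads per library as the implied depth. Each CesA value rests on 241 to 1049 recovered reads. Over the 20 combinations of gene and group, the coefficient of variation between replicates had a median of 6.1% and ran from 2.1% to 15.2%, where counting error alone would give 3.35% to 5.98% if each read were an independent molecule. The identifiers come with no gene names, so the level of PuC3H35 itself and markers of xylem or other root cells were not looked up. The labelled tissue could therefore not be checked, and in whole root tips fewer xylem cells and less transcript per xylem cell cannot be told apart.

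In unstressed WT root tips CesA4 had the highest level of the 5, with 7.95, 6.50 and 6.79 FPKM in its 3 libraries. CesA7-B followed, with 4.24, 4.05 and 4.55 FPKM, and CesA8-A gave 3.88, 3.24 and 4.41. CesA7-A stood at 2.86, 2.92 and 3.50 FPKM and CesA8-B at 2.91, 2.92 and 3.10. CesA4 lay above every other gene in every library, while the ranges of CesA7-B and CesA8-A overlapped, as did those of CesA8-A and CesA7-A and those of CesA7-A and CesA8-B, so these neighbours in the order did not separate beyond their spread. Added over the copies, the classes came close to one another in FPKM, at 7.08 ± 0.770 for CesA4, 7.37 ± 0.595 for CesA7 and 6.82 ± 0.676 for CesA8 (SD, n = 3), with overlapping ranges. How reads matching both copies of a pair were treated is not stated, which leaves the CesA7 and CesA8 sums uncertain. Over the 4 groups the 5 genes lay between the 41.7th and the 63.8th percentile of all 34699 genes, and no higher than the 44.5th percentile of the 22640 genes with a mean FPKM of 1 or more, with a median at the 23.2nd percentile.

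**Figure D1:**
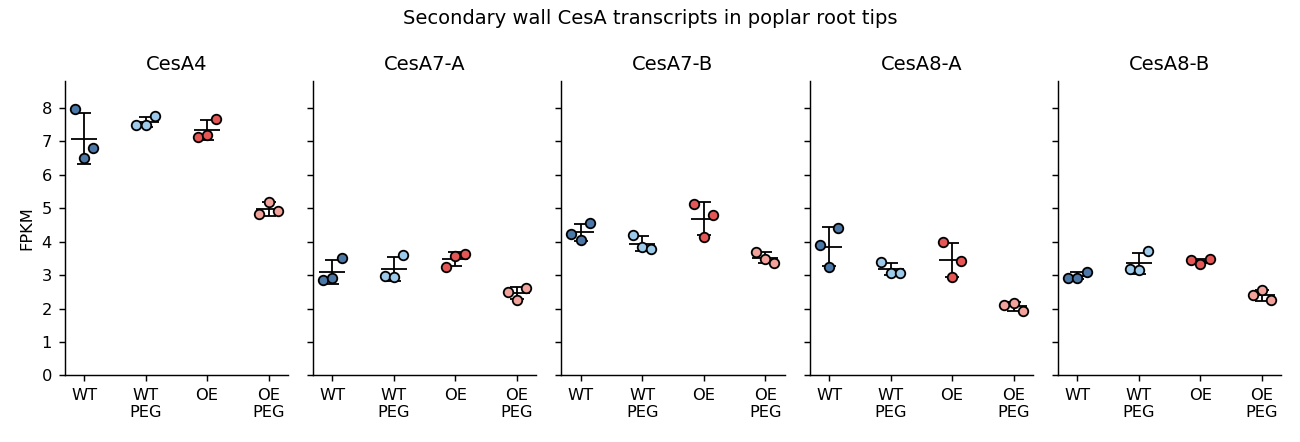
FPKM of each secondary wall CesA gene in the 12 root tip libraries. Points are libraries, the long dash is the group mean and the bars are the SD (n = 3). The OE PEG libraries are the lowest group for all 5 genes, with CesA4 at 4.83 to 5.20 FPKM there and at 6.50 to 7.95 in the other 9 libraries. How many of all genes are lowest in that group was not counted.

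In WT no change of the 5 genes with PEG passed the test. CesA4 stood at 7.49, 7.47 and 7.76 FPKM in WT under PEG, CesA7-A at 2.98, 2.95 and 3.59, and CesA7-B at 4.19, 3.84 and 3.79. These overlapped the WT control values in every case. CesA8-A gave 3.39, 3.07 and 3.08 FPKM, inside and below its control range. CesA8-B gave 3.18, 3.17 and 3.71 FPKM and was the 1 gene whose WT groups did not overlap, all 3 PEG libraries being higher, as they were for 31.5% of all tested genes.

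None of the 5 passed the test for PEG in WT, by limma on log2(FPKM + 1) with Benjamini-Hochberg adjustment over 22640 genes and a threshold of 0.05, and none had an unadjusted p under 0.05. In the same contrast 64.6% of all tested genes were called, 34.7% lower and 29.9% higher. The log2 fold changes ran from -0.21 for CesA8-A (SE 0.10, limma adjusted p = 0.088) to 0.13 for CesA8-B (SE 0.08, adjusted p = 0.15), and their median of 0.03 lay beside -0.04 for all tested genes. The 95% intervals allow a fall of CesA8-A to -0.43 and a rise of CesA8-B to 0.29 on the log2 scale. Calls appeared under other settings. CesA8-A was called lower with voom on recovered reads, which adds no pseudocount of this size (log2 fold change -0.28, adjusted p = 0.021), and without WT library 2 (-0.30, limma adjusted p = 0.022). Without WT library 1, CesA4 was called higher (0.17, limma adjusted p = 0.040). Quantile normalization called CesA8-A (-0.35, limma adjusted p = 0.0056) and CesA7-B (-0.22, adjusted p = 0.019) lower. It also moved the median of all tested genes from -0.04 to -0.11. The shares of all genes called under these settings are not given.

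In OE root tips all 5 genes fell with PEG. CesA4 went from 7.14, 7.19 and 7.68 FPKM without PEG to 4.83, 5.20 and 4.90 with it. CesA7-A went from 3.24, 3.57 and 3.63 to 2.51, 2.25 and 2.63 FPKM, and CesA7-B from 5.13, 4.14 and 4.80 to 3.70, 3.49 and 3.37. Among the CesA8 copies, CesA8-A went from 3.98, 2.95 and 3.43 to 2.12, 2.16 and 1.92 FPKM, and CesA8-B from 3.44, 3.34 and 3.48 to 2.39, 2.56 and 2.24. For each gene every OE PEG library lay below every OE library without PEG, a pattern that 36.5% of all tested genes showed in this direction.

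The mean level under PEG was 59.7% of the control mean for CesA8-A, 67.8% for CesA4, 70.1% for CesA8-B, 70.7% for CesA7-A and 75.1% for CesA7-B. All 5 were called lower, where 34.1% of tested genes were. On the log2(FPKM + 1) scale CesA8-A fell by 0.53 (SE 0.10, limma adjusted p = 0.00033), the most of the 5, and CesA7-B fell by 0.33 (SE 0.08, limma adjusted p = 0.0020), the least. CesA4 fell by 0.48 (SE 0.07, limma adjusted p = 2.6e-05). The median of the 5 was -0.38, against -0.02 for all tested genes, and the 5 fold changes lay between the 9.7th and the 20.8th percentile of all genes. With voom on recovered reads, all 5 were called as well, where 35% of genes were, with ratios from 0.595 (95% interval 0.505 to 0.701) for CesA8-A to 0.747 (0.659 to 0.847) for CesA7-B. The call of all 5 also held without each of the 12 libraries in turn, but the share of all genes called lower in those refits is not given. Leaving out a WT library, with or without PEG, changed the estimate of spread but not these fold changes.

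Gene length moved with this result. The recovered lengths of the 5 genes were 3518 bp (CesA7-A), 3531 bp (CesA7-B), 3741 bp (CesA8-B), 3745 bp (CesA4) and 4147 bp (CesA8-A), where the median of tested genes was 1826 bp. Long genes as a whole were lower under PEG in OE, and Spearman's rho of fold change on length was -0.339 over 22628 genes, a description since genes are no independent replicates. A smoothed trend through all genes stood at -0.18 to -0.25 at these lengths, and each CesA gene lay below it, with differences from the trend of -0.14 (CesA7-B) to -0.28 (CesA8-A) on the log2 scale. In WT the trend at the same lengths was between -0.01 and 0.01. The OE PEG libraries also stood apart in their FPKM sums, at 661656 to 665551 against 610202 to 623973 in the other 9. With every library scaled to the same FPKM sum, all 5 genes stayed called lower with PEG in OE. That scaling moved the median of all tested genes from -0.02 to -0.12, and the share of them called under it is not given. The source of the higher sums was not tested.

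With the length trend removed from every library before the fit, 2 of the 5 remained called lower with PEG in OE, where 28.9% of genes were. These were CesA4, at -0.27 (SE 0.07, limma adjusted p = 0.0052), and CesA8-A, at -0.28 (SE 0.10, adjusted p = 0.025). CesA8-B at -0.18, CesA7-A at -0.19 and CesA7-B at -0.15 missed the threshold, with limma adjusted p of 0.064, 0.079 and 0.12. The source of the length trend was not tested.

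**Figure D2:**
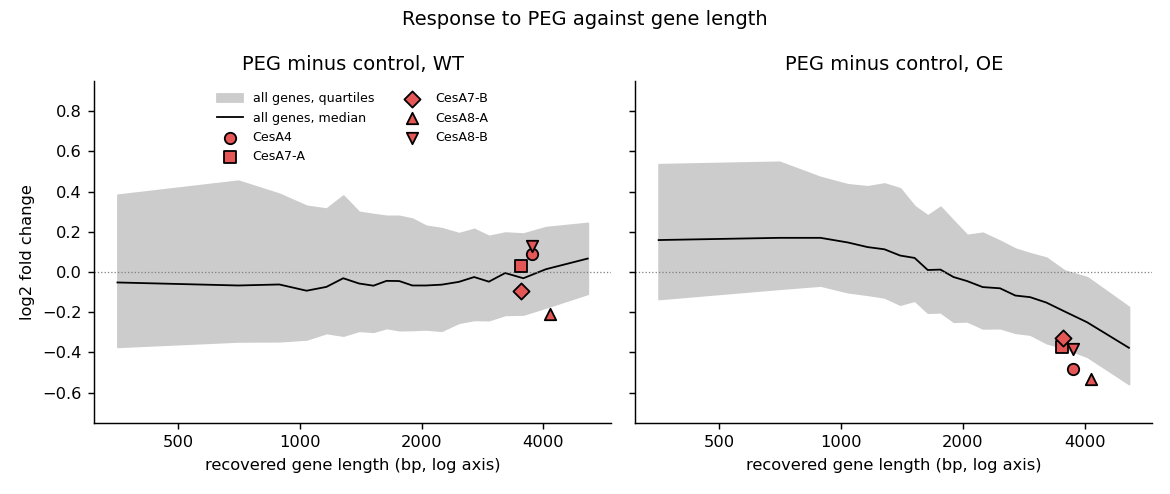
Log2 fold change with PEG on the log2(FPKM + 1) scale against recovered gene length (bp, log axis) in WT and in OE. The line and the grey band are the median and quartiles of all tested genes in bins of length, and red symbols are the 5 CesA genes. In OE the band falls with length and the CesA genes lie at -0.53 to -0.33, below its median, while in WT they lie at -0.21 to 0.13 around a nearly flat line.

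The interaction asks whether PEG acted differently in the 2 genotypes, as the fold change with PEG in OE less the one in WT. It was below 0 for all 5 genes, and 3 of them passed the test, where 29% of tested genes were called in this direction. CesA4 stood at -0.57 (SE 0.10, limma adjusted p = 0.00019), CesA8-B at -0.51 (SE 0.11, adjusted p = 0.00090) and CesA7-A at -0.40 (SE 0.13, adjusted p = 0.014). CesA8-A, at -0.33 (SE 0.14, limma adjusted p = 0.066), and CesA7-B, at -0.23 (SE 0.11, adjusted p = 0.087), missed the threshold. Their intervals of -0.64 to -0.02 and -0.47 to 0.00 do not show that the copies responded alike in both genotypes. All 5 were called lower with voom on recovered reads, where 30.8% of genes were, and without OE library 2, where 27.7% were. Without WT library 3, 4 were called, beside 27.9% of genes. Equal FPKM sums also gave 5 calls, but moved the median of all tested genes from 0.01 to -0.11 and raised the share called lower to 37.4%. With the length trend removed, CesA4 (-0.37, limma adjusted p = 0.0094) and CesA8-B (-0.30, adjusted p = 0.030) kept the call, where 26.2% of genes were called lower. CesA7-A (-0.23, limma adjusted p = 0.15) lost it. CesA8-A and CesA7-B then stood nearer to no difference, at -0.065 and -0.058 (limma adjusted p = 0.73 and 0.68).

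Without PEG no difference of the 5 genes between OE and WT passed the threshold, in a contrast where 55% of tested genes were called, and none had an unadjusted p under 0.05. Fold changes on the log2(FPKM + 1) scale ran from -0.12 for CesA8-A (SE 0.10, limma adjusted p = 0.33) to 0.15 for CesA8-B (SE 0.08, adjusted p = 0.10). Voom on recovered reads called none either, and a fit without the mean-variance trend called CesA8-B higher (adjusted p = 0.040). The 3 OE libraries of CesA8-B lay above the 3 WT libraries, as 34.6% of all tested genes did, and the groups of the other 4 genes overlapped. The widest interval, that of CesA8-A, ran from -0.34 to 0.10, and the highest upper bound was 0.32, for CesA7-A.

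Under PEG, 4 of the 5 genes were lower in OE than in WT, CesA7-B being the one that did not pass the test. All 3 OE PEG libraries lay below all 3 WT PEG libraries for each of the 5 genes, as they did for 34.1% of all tested genes. Mean levels in OE were 64.9% of those in WT for CesA8-A, 65.7% for CesA4, 71.5% for CesA8-B, 77.6% for CesA7-A and 89.4% for CesA7-B. The 4 calls stood beside 32.2% of tested genes called lower. They were CesA4 at -0.52 (SE 0.07, limma adjusted p = 1.1e-05), CesA8-A at -0.45 (SE 0.10, adjusted p = 0.0013), CesA8-B at -0.36 (SE 0.08, adjusted p = 0.00070) and CesA7-A at -0.27 (SE 0.09, adjusted p = 0.015). CesA7-B, at -0.13 (SE 0.08, limma adjusted p = 0.16), was not called. CesA7-A lost its call without OE PEG library 2 (-0.22, limma adjusted p = 0.063) or WT PEG library 3 (-0.20, adjusted p = 0.079). With the length trend removed CesA4 alone was called lower (-0.34, limma adjusted p = 0.0011), where 30.5% of genes were, and CesA7-B turned to 0.03 (adjusted p = 0.73). The comparisons share the OE PEG libraries with the PEG response in OE, so the pattern of one is not separate support for the other.

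**Figure D3:**
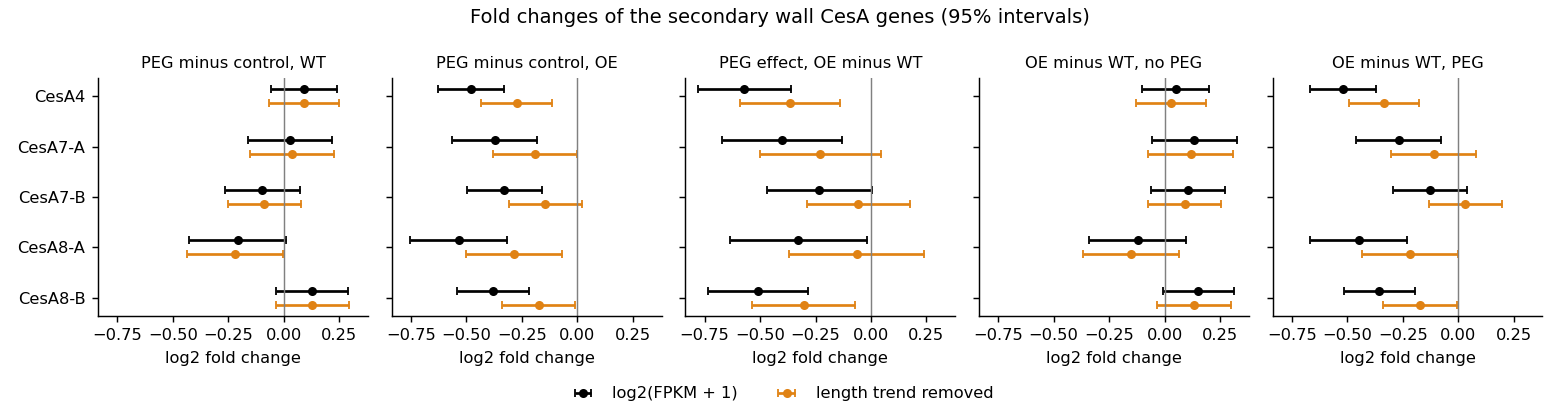
Log2 fold changes of the 5 CesA genes in the 5 contrasts, on the log2(FPKM + 1) scale, with 95% intervals from limma. Black points are the values as measured and orange points those with the length trend removed. Black intervals cross 0 for PEG in WT and for OE against WT without PEG, while for PEG in OE all 5 of them lie below 0.

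The classes were also followed as sums, which depend less on how reads were divided between near-identical copies than single copies do. A sum still depends on it where the copies differ in length, as CesA8-A (4147 bp) and CesA8-B (3741 bp) do. No source used here says how reads matching both copies of a pair were treated, so the values of single copies are uncertain. The sums are uncertain too if such reads were dropped. The summed CesA7 pair fell with PEG in OE from 8.17 ± 0.399 to 5.98 ± 0.232 FPKM and the CesA8 pair from 6.87 ± 0.566 to 4.46 ± 0.281 (SD, n = 3). The pairs thus changed by -0.39 (SE 0.07, limma adjusted p = 0.00011) and by -0.53 (SE 0.08, adjusted p = 3.2e-05) on the log2(FPKM + 1) scale. In WT neither sum was called, at -0.04 (SE 0.07) for CesA7 and -0.05 (SE 0.08) for CesA8 (limma adjusted p = 0.58 for both). Their interactions of -0.35 and -0.48 were called (limma adjusted p = 0.0052 and 0.0020). In the main fit of single genes, 34.1% of tested genes were called lower with PEG in OE and 29% for the interaction. The shares in the fit with sums are not given. The sums were not refitted with the length trend removed. For single copies, that removal left CesA8-A called with PEG in OE and CesA8-B for the interaction. Neither CesA7 copy was called in either. The sum of all 5 genes was 15.1 to 15.6 FPKM in the OE PEG libraries and 19.6 to 23.0 in the other 9. How many of all genes separate in this way was not counted.

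The balance between copies was examined on its own, as the log2 ratio of copy A to copy B in each library. For CesA8 the WT ratios without PEG were 0.42, 0.15 and 0.51, with CesA8-A the higher copy in each. WT under PEG gave 0.09, -0.04 and -0.27, OE without PEG 0.21, -0.18 and -0.02, and OE under PEG -0.17, -0.25 and -0.22. CesA8-A was thus the higher copy in all 3 unstressed WT libraries and the lower one in all 3 OE PEG libraries. Averaged over genotypes, PEG shifted the ratio by -0.33 (exact permutation test within genotype, two-sided, p = 0.010, adjusted p = 0.070 over 14 tests), where the smallest p the design allows is 0.005. OE against WT, averaged over media, shifted it by -0.25 (exact permutation test, p = 0.040, adjusted p = 0.112). Neither passed the adjustment, and the PEG shift passed without OE library 1 (adjusted p = 0.0467, exact permutation test) or OE library 2 (adjusted p = 0.0233).

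For CesA7, copy B was higher in all 12 libraries, with log2 ratios of A to B between -0.66 and -0.08. On average the ratio moved by 0.03 with PEG and by -0.08 with the transgene (exact permutation test, p = 0.745 and 0.470). These averages join shifts of opposite sign. Group means were -0.47 in WT, -0.32 in WT under PEG, -0.43 in OE and -0.52 in OE under PEG. OE less WT was 0.05 without PEG and -0.20 under PEG, and the difference between media was not tested. The share of CesA8-A in the summed FPKM of the 5 genes was 18.01% ± 1.62 in WT, 15.0% ± 0.973 in WT under PEG, 15.4% ± 1.77 in OE and 13.4% ± 0.565 in OE under PEG (SD, n = 3). It fell by 2.52 percentage points with PEG, at the smallest p of the exact permutation test (p = 0.005, adjusted p = 0.070). A single test at that floor cannot go below 0.07 after adjustment over 14 tests, so this comparison could not pass on its own. The share of CesA7-B was 20.1% ± 0.636 in WT, 18.6% ± 1.22 in WT under PEG, 20.9% ± 1.42 in OE and 22.8% ± 0.838 in OE under PEG (SD, n = 3). OE exceeded WT by 0.80 points without PEG and by 4.26 points under PEG. The average of these, 2.53 points, did not pass the adjustment (exact permutation test, p = 0.020, adjusted p = 0.070), and the difference between media was not tested. CesA4 held 33.3% ± 3.03 of the sum in WT, 35.7% ± 0.654 in WT under PEG, 32.8% ± 1.48 in OE and 32.3% ± 1.09 in OE under PEG (SD, n = 3). Averaged over genotypes, its share changed by 0.94 points with PEG (exact permutation test, p = 0.445). OE less WT was -0.48 points without PEG and -3.44 under PEG, and the difference between media was not tested.

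**Figure D4:**
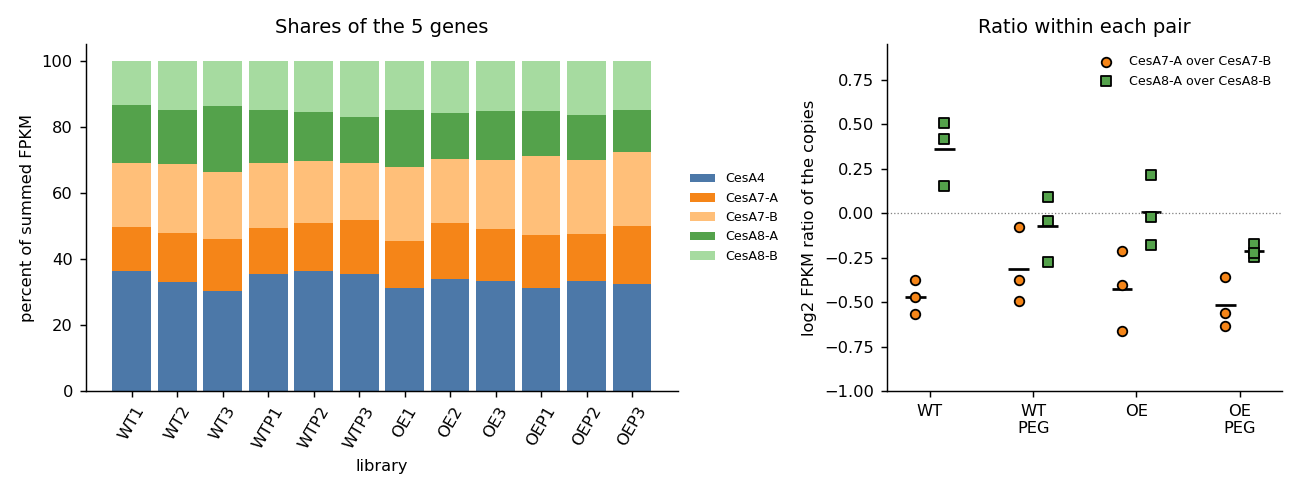
Left, the percent of the summed FPKM that each CesA gene contributes in each library. Right, the log2 FPKM ratio of copy A to copy B in each CesA7 and CesA8 pair, with points for libraries and dashes for group means. CesA8-A over CesA8-B is above 0 in the 3 WT libraries and below 0 in the 3 OE PEG libraries, while CesA7-A over CesA7-B is below 0 throughout.

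Likeness of expression was measured as the root mean square difference of centred log2(FPKM + 1) over the 12 libraries, where 0 is an identical profile. Between members it ran from 0.09 (CesA7-A and CesA8-B) to 0.20 (CesA7-A and CesA8-A), beside medians of 0.26 to 0.34 for all genes against a member. Copies of a pair were not each other's closest match among the 5, though for CesA7-B the 2 nearest members were almost level (CesA8-B 0.124, CesA7-A 0.125). CesA8-B was the 13th closest of 22639 genes to CesA7-A, and CesA7-B the 741st. From CesA8-B, CesA7-A ranked 136th, CesA4 522nd and CesA8-A 4732nd.

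The closest non-members, which the table gives as identifiers without names, were each nearer to their member than the other 4 CesA genes were. They were picked for nearness out of all tested genes, so this describes the choice. They were Potri.010G110700 (0.06) and Potri.018G020800 (0.07) for CesA4, Potri.006G224200 (0.07) and Potri.010G136700 (0.08) for CesA7-A, and Potri.016G036200 (0.05) and Potri.006G135500 (0.06) for CesA7-B. For CesA8-A they were Potri.013G153100 (0.09) and Potri.005G231250 (0.09), and for CesA8-B Potri.011G081200 (0.05) and Potri.007G023300 (0.05). Potri.010G110700, for example, stood at 26.6 ± 0.620 FPKM in WT and 27.5 ± 1.01 in WT under PEG (SD, n = 3). In OE it stood at 25.6 ± 0.652 FPKM and in OE under PEG at 18.9 ± 0.653 (SD, n = 3). That it was lowest in the same group as CesA4 follows from its choice by likeness. Of these 10 genes 6 were over 3000 bp long, as were 21.1% of tested genes with a recovered length, while the pair closest to CesA8-A measured 978 and 162 bp.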

How the data were processed

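Root tip RNA-seq libraries (12, in 4 groups of 3, grouped by title) were deposited as FPKM to 4 decimals, computed by the authors. The submitters' processing notes list HTSeq 0.6.0, HISAT2 2.1.0 and Bowtie2 2.2.3. Their roles, the genome build, strand setting and treatment of multiply mapped reads are stated in no source used here.

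Reads and gene lengths were recovered from the FPKM steps for 22628 of the 22640 genes that reached a mean FPKM of 1, tested on simulated data. Of their values, 100% were returned within 0.0001 FPKM or 0.001%. A length was accepted only where it gave near-whole reads in every library, so this return is largely built in and does not test the lengths. Whether a read is a mate or a pair is not known, so counting errors are approximate.

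The main test was limma 3.58.1 (R 4.3.3) on log2(FPKM + 1) with a mean-variance trend, 1 fit over 12 libraries with 8 residual degrees of freedom, two-sided, adjusted by Benjamini-Hochberg over 22640 genes per contrast. The pseudocount understates changes of weak genes. Ratios and shares of copies were tested by exact permutation within strata, over 400 arrangements, adjusted over 14 tests. Removal of the length trend subtracted, per library, a lowess curve (span 0.2) of each gene's deviation from its mean on log2 length.

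The 5 genes were listed by identifier, but these genes, the tests and the alternatives were picked for study with earlier results of these data known. The genes named beside the 5 are the 2 closest in profile to each. Alternatives covered pseudocount, filter, scaling, variance model, libraries fitted, replicate block, length, voom, summed copies and each library left out. No annotation was used, so the planned pathway and marker lists and sequences are not given.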

Additional observations from a re-analysis of the deposited data

Results flagged for a closer look

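The interaction test found that 3 of the 5 genes answered PEG differently in OE and in WT. The fold change with PEG in OE less the one in WT was -0.57 for CesA4, -0.40 for CesA7-A and -0.51 for CesA8-B on the log2(FPKM + 1) scale (limma adjusted p = 0.00019, 0.014 and 0.00090), in a test that called 29% of all genes in this direction. Every OE PEG library lay below every OE library without PEG for these genes, as for 36.5% of all genes. With the length trend removed the values were -0.37, -0.23 and -0.30, and CesA7-A was no longer called (limma adjusted p = 0.15), beside 26.2% of genes called lower. Groups of 3 libraries are too small to look for a library that stands apart within a group.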

How the results depend on the processing

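Of 575 refits of a single gene's fold change, summed copies left out, 9 lost a call and 14 gained one. The direction of a called value turned in 0, and 552 did none of these. Some refits, such as the replicate block or a library left out from outside the contrast, left the fold change itself as it was. PEG in OE called 5 genes lower in the main fit (34.1% of all tested genes) and 2 with the length trend removed (28.9%). It called 1 at a minimum mean FPKM of 5, where CesA4 was the 1 gene still tested. OE against WT under PEG called 4 lower in the main fit (32.2% of all tested genes), 1 with the length trend removed (30.5%) and 1 at that minimum. The interaction called 3 lower (29% of all tested genes), 5 with equal FPKM sums (37.4%) and 5 with voom (30.8%). It called 1 at the minimum of 5 and 3 to 5 with a library left out. PEG in WT called 0, where 64.6% of all tested genes were called in either direction. It called 2 lower by quantile normalization, 1 lower by voom, and 0 to 1 lower and 0 to 1 higher with a library left out. OE against WT without PEG called 0, beside 55% of all tested genes, with 1 higher when the mean-variance trend was dropped. Counts without a percent here have no share of all genes beside them, so they cannot be judged against one. Equal FPKM sums moved the median of all genes from 0.01 to -0.11 for the interaction, and quantile normalization moved it from -0.04 to -0.11 for PEG in WT. Apart from the filter, whose cause is the loss of 4 genes, the cause was not tested.

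Over the whole table, 2-fold calls for OE against WT without PEG rose from 1056 to 1896 with a pseudocount of 0.1 and to 2004 with voom. With a minimum mean FPKM of 5 they fell from 1872 to 1182 for PEG in WT and from 2223 to 1473 for PEG in OE.

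With a library left out, the PEG shift of the CesA8 copy ratio was -0.38 to -0.27 and that of the CesA8-A share -2.89 to -2.03 points. The difference between OE and WT was -2.61 to -1.69 points for CesA8-A and 2.17 to 2.87 for CesA7-B, with adjusted p of 0.0233 at the lowest.

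Same-numbered libraries of different groups did not deviate together (median correlation 0.00, highest 0.10, over 18 pairs). A replicate block left the calls of the 5 genes at 5 lower for PEG in OE, 4 for OE against WT under PEG, 3 for the interaction and 0 elsewhere, and gave 2224 genes at 2-fold for PEG in OE.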
